A study of Homo sapiens with 6 samples.

Results

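The human mitochondrial genome carries a small set of genes of its own, and all of its rows in the deposited count table were taken, namely every row whose chromosome is chrM. These were 37 genes of 39323 rows, made up of 13 protein-coding genes, 2 ribosomal RNA (rRNA) genes and 22 transfer RNA (tRNA) genes. On the reference sequence 28 of them lie on the plus strand and 9 on the minus strand. The minus-strand genes are MT-ND6 and 8 tRNA genes. The rule used the chromosome of a row and no measured value.

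The series asks how the splicing factor SF3B6 acts in MDA-MB-231, a human line of triple-negative breast cancer. SF3B6 belongs to SF3b, which holds the U2 snRNP at the branch point of introns. In 3 libraries the line had been transfected with a single siRNA against SF3B6 (siSF3B6), and in 3 others with a non-targeting siRNA (siNC), both with the same lipid reagent. Poly(A)-selected RNA was sequenced. The replicates are called biological in the design text, but separate cultures are not named in the labels. The p-values therefore measure the spread between these libraries, which may in part be technical.

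Mitochondrial DNA is transcribed by its own RNA polymerase into long transcripts that run almost around the circle in each direction. tRNA genes punctuate them, and excision of the tRNAs by RNase P and RNase Z frees the rRNAs and mRNAs between them. Most of the mRNAs and both rRNAs then receive short poly(A) tails, and nuclear-encoded proteins govern how long each RNA lasts. The mitochondrial mRNAs contain no introns, so their own maturation does not use the spliceosome. All 13 proteins are subunits of the respiratory chain or of ATP synthase.

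SF3B6 itself had 22.5, 25.0 and 21.3 CPM (read counts relative to library size, scaled by TMM factors) in siSF3B6, against 86.4, 80.5 and 102 CPM in siNC. On the log2 scale this was a change of -1.96 (SE 0.104, adjusted p = 1.43e-07 in the quasi-likelihood test of edgeR), as siSF3B6 over siNC in this and all later fold changes. The gene totals were 30684131, 38546037 and 31326673 reads in siSF3B6 and 29627499, 28504091 and 33754386 reads in siNC. siNC replicates 1 and 2 stood apart from the other 4 libraries: genes with only 1 to 9 reads numbered 7877, 8325 and 7890 in siSF3B6, against 13952, 14956 and 7731 in siNC. They also stood apart in the mitochondrial share described next, so the main results below are also given with siNC replicate 3 as the only control or without it. VIM, CD44 and KRT18, which mark this line, had 15354 to 122637 reads in every library. The estrogen and progesterone receptor genes ESR1 and PGR, which the line lacks, had at most 4 and 11 reads. CDH1, the epithelial cadherin, was low but present, at 6.63 ± 0.75 CPM in siSF3B6 and 4.50 ± 0.65 CPM in siNC (SD, n = 3 each), and was called higher (log2 fold change 0.56, edgeR adjusted p = 0.00697). Of 8 markers of leukocytes, endothelium, epithelium, fibroblasts and liver, 4 were abundant enough to test. EPCAM and PTPRC were higher, PECAM1 was lower, and the 8 summed to 1092 to 1588 reads in siSF3B6 and 794 to 901 in siNC. The part of these markers in the mitochondrial results was not tested.

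The mitochondrial genes together took a larger part of the reads after SF3B6 knockdown. They held 10.8%, 10.6% and 11.8% of all gene reads in siSF3B6, against 3.38%, 3.93% and 9.07% in siNC. The lowest siSF3B6 library lay above the highest siNC library, and siNC replicate 3 was closer to them than to the rest of its own group. The means were 11.1% ± 0.63 in siSF3B6 and 5.46% ± 3.14 in siNC (SD, n = 3 each), a difference of 5.60 percentage points. The exact two-sided permutation test gave p = 0.1, the smallest p that 3 against 3 libraries allow. Against siNC replicate 3 alone the difference was 1.99 points, and without that library it was 7.40 points. Counting error was far smaller than these differences, since the 95% Wilson interval ran from 3.37% to 3.39% in siNC replicate 1. Intervals here cover counting error only, because the reads carry no molecular identifiers. Among protein-coding reads alone, the 13 mitochondrial genes held 9.65%, 9.55% and 10.6% in siSF3B6, against 2.72%, 3.28% and 8.17% in siNC. These are shares of the reads, so they do not show whether the amount of mitochondrial RNA per cell changed. In bulk RNA, more mitochondria or mitochondrial DNA per cell and more RNA per genome cannot be told apart either.

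**Figure D1:**
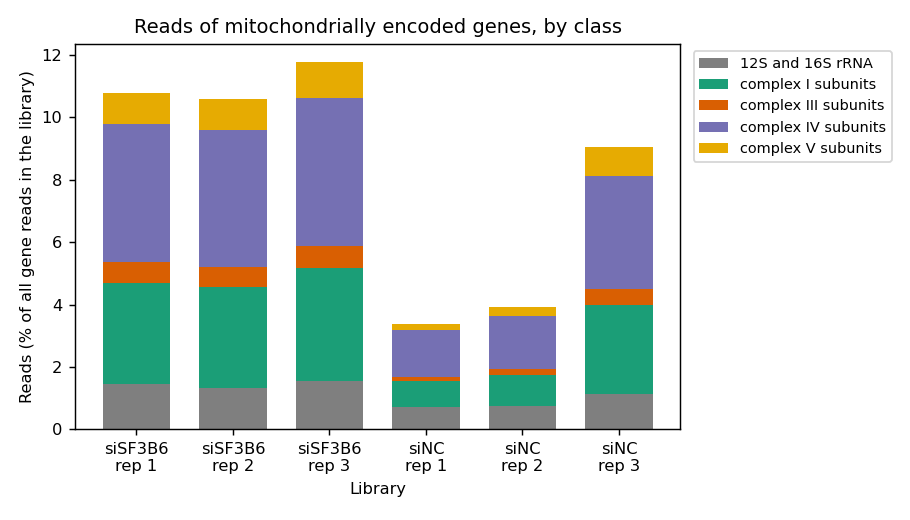
Each bar is a library, and its height is the percentage of all gene reads that fell in the mitochondrial coding and rRNA genes, stacked by rRNAs and by the respiratory complex the coded subunits belong to (tRNA genes, at most 0.114% of mitochondrial reads, are too few to draw). The 3 siSF3B6 bars reach 10.6% to 11.8%, siNC replicate 3 reaches 9.07%, and siNC replicates 1 and 2 stay under 4%.

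The mitochondrial genes that passed the test all rose in siSF3B6. Of the 37 genes, 34 passed the filter on low counts, and 19 of these were higher and 0 lower at an adjusted p under 0.05 (edgeR quasi-likelihood test). No gene was lower at an unadjusted p under 0.05 either, and DESeq2 and limma-voom also called 0 lower. The background was high, since 40.8% of all 16869 genes tested passed that threshold in either direction, and 20.8% of all genes did so upward. The 19 were the 13 coding genes, both rRNA genes and the tRNA genes MT-TS1, MT-TT, MT-TL1 and MT-TN. The median log2 fold change was 0.74 over the 34 tested genes and 0.00093 over all genes tested. With siNC replicate 3 as the only control, which is then assumed to vary like the siSF3B6 libraries, 7 of 37 genes were called, all upward, where 13.8% of all genes were called (6.6% upward), and the median was 0.19. Without siNC replicate 3, 24 of 35 were called, all upward, where 43.8% of all genes were called (22.5% upward), and the median was 1.15. In scaled CPM, every siSF3B6 library lay above every siNC library for 20 of the 37 genes, as for 26.3% of all genes tested. Among the 20 are MT-TY and MT-TW, with at most 17 reads in a library. DESeq2 called 4 of the 34 (MT-CO1, MT-ND4L, MT-RNR2 and MT-TT), and edgeR with robust dispersion also called 4 (MT-CO1, MT-RNR2, MT-TT and MT-TN). The median log2 fold change of the 34 was 0.75 with DESeq2 and 0.74 with robust dispersion. The share of all genes called in those fits is not given here, so these counts have no background. On leaving out each library in turn, 8 of the 19 genes were called every time, namely MT-CO1, MT-CO3, MT-CYB, MT-ND4L, MT-ND5, MT-RNR2, MT-TS1 and MT-TT. The other 11 lost the call in at least 1 of these fits, each of them without siSF3B6 replicate 3, but kept their direction.

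The deposited FPKM values give a level per length, by which the genes were ranked. Poly(A) selection can capture RNAs with short or no tails unequally, so this order need not be that of RNA amounts. In siSF3B6, subunits of cytochrome c oxidase led: MT-CO2 had 15000.4, 15014.9 and 16350.0 FPKM, and MT-CO3 had 14676, 14639 and 15236 FPKM. The ranges of these leading genes overlapped. MT-CO1 followed with 10672, 10532 and 11002 FPKM, below both in every library. MT-ATP8, with 9756, 9498 and 12575 FPKM, could not be separated from MT-CO1 or from MT-ATP6, which had 9637, 9641 and 10442 FPKM. Below them the siSF3B6 means ran from MT-ND4 (8604 FPKM) and MT-RNR2 (6796 FPKM) through MT-ND2 (5951 FPKM), MT-ND3 (5278 FPKM), MT-CYB (5088 FPKM), MT-ND1 (4363 FPKM) and MT-ND4L (3413 FPKM) to MT-RNR1 (1837 FPKM), MT-ND5 (1736 FPKM) and MT-ND6 (958 FPKM). In that order the siSF3B6 ranges of MT-ND3 and MT-CYB overlapped, as did those of MT-RNR1 and MT-ND5, and the other neighbours from MT-ND4 down did not. MT-ND6, the only coding gene of the minus strand, was last in all 6 libraries.

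The order was not the same in every siNC library. MT-CO1 came first in siNC replicates 1 and 2, with 4481 and 4977 FPKM, and had rank 4 in siNC replicate 3, with 9010.2 FPKM. MT-CO2 had 2870.4 and 3656 FPKM in siNC replicates 1 and 2, where its ranks were 4 and 3, and 12209 FPKM in siNC replicate 3, where it ranked first as in all siSF3B6 libraries. MT-RNR2 had rank 7 in every siSF3B6 library, against ranks 3, 4 and 8 in siNC replicates 1 to 3. The tRNA genes lay far lower, between 1.19 and 339 FPKM over all libraries. A tRNA gene is 59 to 75 bases long, so a sequenced fragment can extend past it, and FPKM of such short genes is only a rough level.

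**Figure D2:**
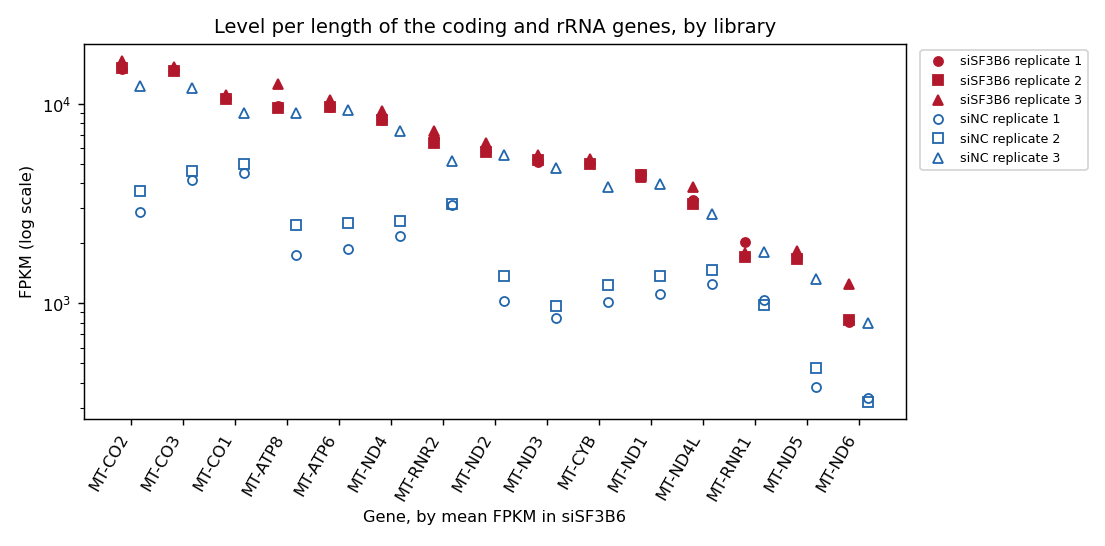
Deposited FPKM (log scale) of the 13 coding and 2 rRNA genes, ordered by their siSF3B6 mean, with a filled symbol for each siSF3B6 library and an open symbol for each siNC library. MT-CO2 and MT-CO3 head the siSF3B6 order and MT-ND6 ends it, and the open circles and squares of siNC replicates 1 and 2 lie below all other symbols for each gene shown.

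Complex IV, cytochrome c oxidase, passes electrons to oxygen, and its 3 catalytic-core subunits are mitochondrially encoded. MT-CO2 (ENSG00000198712.1, chrM:7586-8269 of GRCh38) had 12439, 12414 and 13571 CPM in siSF3B6, against 2297, 2953 and 9648 CPM in siNC. The groups did not overlap, and siNC replicate 3 was more than 3 times as high as either other siNC library. This was fitted as a log2 change of 1.37 (SE 0.38, adjusted p = 0.0104), and it was 0.40 (adjusted p = 0.0122) against siNC replicate 3 alone and 2.29 without it. Without siSF3B6 replicate 3 the adjusted p was 0.0533. MT-CO3 (ENSG00000198938.2, chrM:9207-9990) had 13949, 13873 and 14495 CPM in siSF3B6, against 3808, 4274 and 10846 CPM in siNC. The fitted log2 change was 1.16 (SE 0.29, adjusted p = 0.00568), and 0.37 (adjusted p = 0.0126) against siNC replicate 3 alone. MT-CO1 (ENSG00000198804.2, chrM:5904-7445) had 19950.0, 19630.4 and 20587 CPM in siSF3B6, against 8082, 9059 and 16052 CPM in siNC. Its change was the smallest of the coding genes, a log2 change of 0.86 (SE 0.20, adjusted p = 0.00356), and 0.31 (adjusted p = 0.023) against siNC replicate 3 alone. In all 3 genes every siSF3B6 library lay above every siNC library.

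Complex III, the cytochrome bc1 complex, has cytochrome b as its only mitochondrially encoded subunit. MT-CYB (ENSG00000198727.2, chrM:14747-15887) had 6965, 6857 and 7279 CPM in siSF3B6, against 1351, 1667 and 5024 CPM in siNC. The siSF3B6 libraries lay close together and the siNC libraries far apart, without overlap. MT-CYB had the largest log2 fold change of the coding genes in the fit of all 6 libraries, 1.39 (SE 0.35, adjusted p = 0.00595). It was also the largest of the 13 against siNC replicate 3 alone, at 0.47 (adjusted p = 0.00577). Without siNC replicate 3 it was 2.22, below MT-ND3 (2.59), MT-ATP8 (2.37), MT-ND2 (2.36) and MT-CO2 (2.29).

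Complex I, NADH dehydrogenase, has 7 mitochondrially encoded subunits, all in its membrane arm. MT-ND5 (ENSG00000198786.2, chrM:12337-14148), a proton-pumping subunit and the longest coding gene, had 3749, 3664 and 4018 CPM in siSF3B6, against 809, 1016 and 2756 CPM in siNC. In the fit this was a log2 change of 1.32 (SE 0.32, adjusted p = 0.00505), and 0.45 (adjusted p = 0.0106) against siNC replicate 3 alone. MT-ND4, another proton-pumping subunit, had 13908, 13802 and 15387 CPM in siSF3B6, against 3501, 4219 and 11579.5 CPM in siNC. The log2 fold change came to 1.16 (SE 0.32, adjusted p = 0.0106), and 0.30 (adjusted p = 0.0449) against siNC replicate 3 alone. Without siSF3B6 replicate 3 the adjusted p was 0.0552. These were the only complex I genes called with that single control.

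The other complex I genes were called with all 6 libraries but lay close to siNC replicate 3. MT-ND3, a small subunit near the junction with the matrix arm, had 2132, 2177 and 2328 CPM in siSF3B6, against 341, 394 and 1898 CPM in siNC. A log2 fold change of 1.33 (adjusted p = 0.0325) with all 6 libraries became 0.21 (adjusted p = 0.193) against siNC replicate 3 alone and 2.59 without it. MT-ND2, also a proton-pumping subunit, had a log2 fold change of 1.24 (adjusted p = 0.0341), which became 0.17 (adjusted p = 0.263) against siNC replicate 3 alone. MT-ND1, which helps form the quinone-binding site, had 1.08 (adjusted p = 0.0183), which became 0.19 (adjusted p = 0.18). MT-ND4L, whose reading frame overlaps that of MT-ND4, had 0.94 (adjusted p = 0.00347), which became 0.34 (adjusted p = 0.0885). In all of these the siSF3B6 libraries lay above all siNC libraries. MT-ND1, MT-ND2 and MT-ND3 also lost the call without siSF3B6 replicate 3 (adjusted p = 0.0681, 0.12 and 0.114), without siNC replicate 1 (0.0501, 0.0813 and 0.0813) and without siNC replicate 2 (0.0729, 0.117 and 0.104), and MT-ND2 without siSF3B6 replicate 1 (0.0512).

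MT-ND6 (ENSG00000198695.2, chrM:14149-14673, minus strand) codes a membrane-arm subunit and is the only mitochondrial coding gene on the minus strand. It had 511, 523 and 794 CPM in siSF3B6, against 206, 198 and 484 CPM in siNC. siSF3B6 replicate 3 stood above the other siSF3B6 libraries, and the groups did not overlap. The log2 fold change was 1.04 (SE 0.27, adjusted p = 0.00819), and 0.32 (adjusted p = 0.317) against siNC replicate 3 alone. Without siSF3B6 replicate 3 the adjusted p was 0.0734. The 3′ end of MT-ND6 abuts that of MT-ND5, which lies on the other strand. Per 100 MT-ND5 reads, MT-ND6 had 13.6, 14.3 and 19.8 reads in siSF3B6, against 25.5, 19.5 and 17.6 in siNC (exact permutation p = 0.3), and these ranges overlapped. The libraries were strand-specific per the labels, but how the counter treated strand is stated in no source used here, and reads of genes on opposite strands cannot be told apart.

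Complex V, the ATP synthase, takes its subunit a from MT-ATP6 and its subunit 8 from MT-ATP8, which are read from a single mRNA in overlapping frames. The overlap is 46 bases, 22.2% of MT-ATP8 and 6.75% of MT-ATP6, and a read that lies within it fits both genes. It is shown from GENCODE release 29 (GRCh38, chrM:8527-8572, plus strand), with the start codon of MT-ATP6 and the stop codon of MT-ATP8 in capitals.
MT-ATP8/MT-ATP6 overlap: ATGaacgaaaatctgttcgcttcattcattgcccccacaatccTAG
MT-ATP6 had 7956, 7936 and 8629 CPM in siSF3B6, against 1488, 2023 and 7286 CPM in siNC. The log2 change was 1.18 (SE 0.41, adjusted p = 0.0322), and it became 0.15 (adjusted p = 0.286) against siNC replicate 3 alone. MT-ATP8 had 2448, 2376 and 3159 CPM in siSF3B6, against 423, 606 and 2150 CPM in siNC. Its log2 fold change of 1.33 (SE 0.42, adjusted p = 0.0209) became 0.30 (adjusted p = 0.189) against siNC replicate 3 alone. MT-ATP6 and MT-ATP8 lost the call without siSF3B6 replicate 3 (adjusted p = 0.114 and 0.105) and without siNC replicate 2 (0.114 and 0.0767), and MT-ATP6 without siNC replicate 1 (0.0787). Per 100 MT-ATP6 reads, MT-ATP8 had 30.8, 29.9 and 36.6 reads in siSF3B6, against 28.5, 30.0 and 29.5 in siNC. The ratio stayed near 30 in 5 libraries and was highest in siSF3B6 replicate 3, where MT-ND6 was also highest. In the other pair with overlapping frames, MT-ND4L and MT-ND4, the ratio was less even. Per 100 MT-ND4 reads, MT-ND4L had 8.52, 8.17 and 8.93 reads in siSF3B6, against 12.4, 12.3 and 8.33 in siNC (exact permutation p = 0.3). Here siNC replicates 1 and 2 stood apart, and the cause was not tested.

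The 12S and 16S rRNAs are the RNA cores of the small and large mitochondrial ribosomal subunits. MT-RNR2, the 16S rRNA (ENSG00000210082.2, chrM:1671-3229), had 12692, 11951 and 13871 CPM in siSF3B6, against 5684, 5813 and 9344 CPM in siNC. The groups did not overlap, and the log2 fold change was 0.89 (SE 0.17, adjusted p = 0.000891). Against siNC replicate 3 alone it was 0.45 (adjusted p = 0.0104). MT-RNR1, the 12S rRNA (ENSG00000211459.2, chrM:648-1601), had 2337, 1974 and 2059 CPM in siSF3B6, against 1164, 1102 and 2001 CPM in siNC. siNC replicate 3 lay inside the siSF3B6 range, so these groups overlapped. The log2 fold change of MT-RNR1 was 0.58 (SE 0.18, adjusted p = 0.0197), the smallest among the coding and rRNA genes, and it was 0.07 (adjusted p = 0.713) against siNC replicate 3 alone. Its adjusted p was 0.066 without siSF3B6 replicate 1, 0.0567 without siSF3B6 replicate 3, 0.0828 without siNC replicate 1 and 0.0947 without siNC replicate 2.

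The rRNA genes lie behind the same promoters with only MT-TV between them, and the ratio of their reads differed between the groups. MT-RNR2 had 543, 606 and 674 reads per 100 MT-RNR1 reads in siSF3B6, against 488, 527 and 467 in siNC. All siSF3B6 values lay above all siNC values, siNC replicate 3 included (exact permutation p = 0.1, the smallest possible). The ratio was lowest of all in siNC replicate 3.

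The tRNA genes were measured at far lower counts, 1997, 2347 and 2550 reads in all in the siSF3B6 libraries, against 1146, 1074 and 2214 in siNC. Mature tRNAs carry no poly(A) tail, and counts do not show whether such reads come from tRNAs or from longer transcripts that contain them. Of the 22 tRNA genes, 19 passed the filter on low counts and 4 of these were higher in siSF3B6, a share close to the 20.8% of all genes tested that were called higher. The 4 tRNA genes printed here were chosen after their values were seen: MT-TS1, whose share of mitochondrial reads was higher in siSF3B6, and MT-TD, MT-TH and MT-TC, which had the lowest relative log2 fold changes when scaled to the mitochondrial total. Sequences are from GENCODE release 29 (GRCh38), 5′ to 3′ of the tRNA, with the anticodon in capitals.
MT-TS1: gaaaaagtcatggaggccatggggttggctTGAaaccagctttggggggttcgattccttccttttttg
MT-TD: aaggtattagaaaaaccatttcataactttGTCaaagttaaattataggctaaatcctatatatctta
MT-TH: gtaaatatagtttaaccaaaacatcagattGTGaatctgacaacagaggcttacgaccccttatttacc
MT-TC: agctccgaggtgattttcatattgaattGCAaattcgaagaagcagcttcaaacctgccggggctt
MT-TS1, the serine tRNA that reads UCN codons, lies at chrM:7446-7514 on the minus strand. MT-TD, the aspartate tRNA, lies at chrM:7518-7585 on the plus strand between MT-TS1 and MT-CO2. MT-TH, the histidine tRNA, lies at chrM:12138-12206 on the plus strand, directly after MT-ND4. MT-TC, the cysteine tRNA, lies at chrM:5761-5826 on the minus strand within a cluster of tRNA genes between MT-ND2 and MT-CO1.

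MT-TS1 was the tRNA gene with the most reads in siSF3B6. It had 509, 552 and 867 reads in siSF3B6, against 76, 69 and 405 reads in siNC. Scaled, these were 17.3, 14.9 and 28.4 CPM in siSF3B6, against 2.44, 2.29 and 12.1 CPM in siNC. The siSF3B6 libraries lay above the siNC libraries, with siNC replicate 3 close to the lowest siSF3B6 library. The log2 fold change was 1.83 (SE 0.44, adjusted p = 0.00498), and 0.73 (adjusted p = 0.101) against siNC replicate 3 alone and 3.09 without it. The MT-CO1 mRNA is known to run on through the antisense of MT-TS1, which begins at the base after the annotated end of MT-CO1. Reads of that mRNA end and of the tRNA cannot be told apart without knowing the strand used in counting. Per 100 MT-CO1 reads, MT-TS1 had 0.087, 0.076 and 0.138 reads in siSF3B6, against 0.030, 0.025 and 0.075 in siNC. Relative to siNC replicates 1 and 2, the 2 genes did not change in proportion. The Wilson intervals of siSF3B6 replicate 2 (0.070 to 0.083) and siNC replicate 3 (0.068 to 0.083) overlapped, so these libraries were not separated.

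The other called tRNA genes changed less. MT-TT, the threonine tRNA, had 48, 52 and 43 reads in siSF3B6, against 22, 20 and 31 in siNC, a log2 change of 0.94 (SE 0.24, adjusted p = 0.00688). MT-TN, the asparagine tRNA, had 77, 95 and 83 reads in siSF3B6, against 59, 56 and 67 in siNC, a log2 change of 0.46 (SE 0.17, adjusted p = 0.0404). The siNC libraries of both lay close together, at 0.76 ± 0.14 CPM for MT-TT and 1.91 ± 0.072 CPM for MT-TN (SD, n = 3). MT-TL1, the leucine tRNA directly after MT-RNR2, had 324, 404 and 381 reads in siSF3B6, against 152, 165 and 387 in siNC. Its log2 fold change of 0.65 (SE 0.24, adjusted p = 0.0423) became -0.02 (adjusted p = 0.949) against siNC replicate 3 alone. Against that single control MT-TT had 0.67 (adjusted p = 0.217) and MT-TN 0.39 (adjusted p = 0.322), and no tRNA gene was called (1 of 22 had an unadjusted p under 0.05). MT-TL1 and MT-TN also lost the call without siSF3B6 replicate 1 (adjusted p = 0.0631 and 0.0899), without siSF3B6 replicate 3 (0.153 and 0.0713), without siNC replicate 1 (0.159 and 0.112) and without siNC replicate 2 (0.158 and 0.113), and MT-TN without siSF3B6 replicate 2 (0.0782).

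The remaining 15 tested tRNA genes did not pass the threshold, with log2 fold changes between -0.25 (MT-TH) and 0.84 (MT-TK). MT-TK, the lysine tRNA, had 30, 29 and 42 reads in siSF3B6, against 14, 14 and 28 in siNC, with adjusted p = 0.0544. MT-TC was nearly level, with 138, 179 and 155 reads in siSF3B6, against 152, 139 and 146 in siNC, or 4.87 ± 0.19 CPM and 4.61 ± 0.26 CPM (SD, n = 3 each). This was fitted as a log2 change of 0.08 (SE 0.13, adjusted p = 0.648). MT-TP, the proline tRNA, was similar, at 4.85 ± 0.84 CPM in siSF3B6 and 4.52 ± 0.15 CPM in siNC, a log2 change of 0.10 (SE 0.15, adjusted p = 0.633). MT-TD and MT-TH had values below 0, at -0.18 (SE 0.18) and -0.25 (SE 0.24). MT-TY, MT-TW and MT-TL2 had 3 to 17 reads in each library and were not tested with all 6 libraries.

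The composition of the mitochondrial reads shows the genes apart from the total. Shares add up to 100%, so a rise of some genes lowers the share of the others. Coding genes held 86.6%, 87.4% and 86.7% of mitochondrial reads in siSF3B6, against 78.6%, 81.3% and 87.5% in siNC. The rRNA genes held 13.3%, 12.6% and 13.2% in siSF3B6, against 21.3%, 18.6% and 12.5% in siNC. The low coding share and high rRNA share belonged to siNC replicates 1 and 2, while siNC replicate 3 lay just below the siSF3B6 range of the rRNA share. The rRNA difference was -4.43 percentage points (exact permutation p = 0.4), and it turned to 0.59 points against siNC replicate 3 alone and was -6.94 points without it. The tRNA genes held 0.060%, 0.057% and 0.069% in siSF3B6, against 0.114%, 0.096% and 0.072% in siNC. These did not overlap (difference -0.032 points, exact permutation p = 0.1), although the 95% Wilson intervals of siSF3B6 replicate 3 (0.066% to 0.072%) and siNC replicate 3 (0.069% to 0.075%) did. Against siNC replicate 3 alone the difference was -0.010 points.

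By respiratory complex, only complex III, the single gene MT-CYB, kept the groups apart. It held 6.18%, 6.20% and 6.03% of mitochondrial reads in siSF3B6, against 4.21%, 4.49% and 5.51% in siNC (exact permutation p = 0.1). Complex I subunits held 30.1%, 30.3% and 30.6% in siSF3B6, against 24.2%, 25.8% and 31.5% in siNC. Complex V subunits held 9.23%, 9.32% and 9.77% in siSF3B6, against 5.95%, 7.08% and 10.4% in siNC. In both, siNC replicate 3 was the highest library and the other siNC libraries the lowest. Complex IV subunits held 41.1%, 41.5% and 40.3% in siSF3B6, against 44.2%, 43.9% and 40.1% in siNC.

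Within complex IV, MT-CO2 and MT-CO3 held a larger share in every siSF3B6 library than in every siNC library, and MT-CO1 overlapped. MT-CO1 held 17.7%, 17.7% and 17.1% of mitochondrial reads in siSF3B6, against 25.2%, 24.4% and 17.6% in siNC. MT-CO2 held 11.0%, 11.2% and 11.3% in siSF3B6, against 7.15%, 7.95% and 10.6% in siNC. Relative to each other, MT-CO2 had 62.3, 63.2 and 65.9 reads per 100 MT-CO1 reads in siSF3B6, against 28.4, 32.6 and 60.1 in siNC (exact permutation p = 0.1). MT-CYB had 34.9, 34.9 and 35.4 reads per 100 MT-CO1 reads in siSF3B6, against 16.7, 18.4 and 31.3 in siNC. In both ratios the siSF3B6 libraries were tightly grouped, siNC replicate 3 was just below them and siNC replicates 1 and 2 were far lower. MT-CO3 differed least, with 12.37%, 12.54% and 12.02% in siSF3B6, against 11.86%, 11.51% and 11.90% in siNC (exact permutation p = 0.1).

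**Figure D3:**
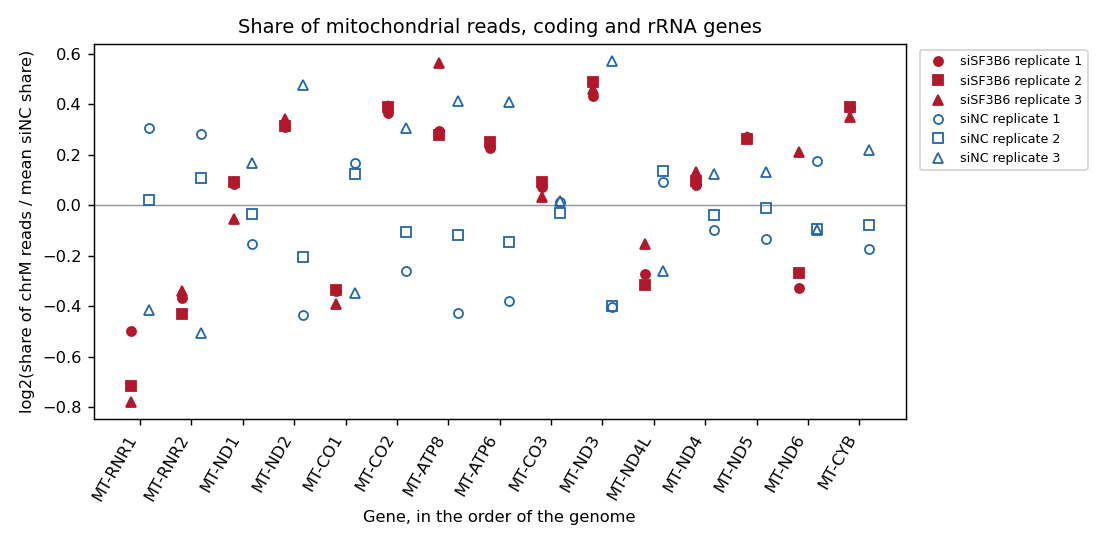
Share of mitochondrial reads of each coding and rRNA gene, as log2 of the share over the mean siNC share, in genome order, with filled symbols for the siSF3B6 libraries and open symbols for the siNC libraries. The filled symbols of a gene mostly lie close together, while siNC replicate 3 (open triangles) sits on the siSF3B6 side of its group for most genes, and MT-RNR1, MT-CO2, MT-CO3, MT-ND5 and MT-CYB are the genes where the groups do not overlap.

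Over all 37 genes, the share of mitochondrial reads was higher in every siSF3B6 library than in every siNC library for 5 genes, lower for 16 and overlapping for 16. On the same scale, 0.178% of all 16869 genes tested lay higher without overlap and 67.8% lay lower, since the mitochondrial total itself was higher in siSF3B6. The 5 higher genes were MT-TS1, MT-CO2, MT-CO3, MT-ND5 and MT-CYB. The 16 lower ones were MT-RNR1 and 15 tRNA genes. The 15 are 68.2% of the 22 tRNA genes, close to the 67.8% of all genes tested. The share of MT-TS1 was 0.015%, 0.014% and 0.024% in siSF3B6, against 0.0076%, 0.0062% and 0.013% in siNC, a ratio of means of 1.94. For MT-TS1 the Wilson intervals of siSF3B6 replicate 2 (0.0124% to 0.0147%) and siNC replicate 3 (0.0120% to 0.0146%) overlapped. The share of MT-TD, the neighbour of MT-TS1, was 0.0016% in each siSF3B6 library, against 0.0070%, 0.0049% and 0.0024% in siNC, a ratio of 0.336. For MT-RNR1 the share was 2.07%, 1.78% and 1.71% in siSF3B6, against 3.63%, 2.97% and 2.20% in siNC, a ratio of 0.633.

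When each library's mitochondrial total replaced its library size in edgeR, 4 of the 34 genes were called lower and 0 higher (0 also at an unadjusted p under 0.05), against a background of 71.9% of all genes called lower and 0.0593% called higher. The 4 were MT-TD (relative log2 fold change -1.55, adjusted p = 0.0136), MT-TH (-1.52, adjusted p = 0.0188), MT-TC (-1.33, adjusted p = 0.0208) and MT-TP (-1.28, adjusted p = 0.0249). On this scale the median log2 fold change was -1.38 over all genes tested and -0.44 over the 34 mitochondrial genes. The values of the 4 thus lay near the median of all genes. MT-TS1 had 0.95 (SE 0.51, adjusted p = 0.0801). These counts rest on single libraries. Without siNC replicate 3, 8 of 35 genes were called higher (0.156% of all genes) and 19 lower (97% of all genes). The 8 were MT-TS1 (1.35, adjusted p = 5.94e-13), MT-ND3 (0.86, adjusted p = 1.40e-07), MT-ATP8, MT-ND2, MT-CO2, MT-ATP6, MT-CYB and MT-ND5. The 19 were MT-RNR1 (-0.83, adjusted p = 1.08e-07), MT-RNR2, MT-CO1, MT-ND4L and 15 tRNA genes. When a single library among the other 5 was left out, 0 genes were called in either direction (1 to 3 had an unadjusted p under 0.05), where MT-TD had adjusted p = 0.0895 to 0.116, and 0.105% to 13.8% of all genes were called lower. These fits with a library left out were chosen after the data were seen. Against siNC replicate 3 alone 3 genes were called lower (22.9% of all genes) and 0 higher (1.64% of all genes), namely MT-TF, MT-TQ and MT-TH. There MT-TS1 had 0.40 (adjusted p = 0.354), the relative value of MT-TH was -0.94 (adjusted p = 0.0436), while those of MT-TD (-0.56, adjusted p = 0.121), MT-TC (-0.17, adjusted p = 0.498) and MT-TP (-0.28, adjusted p = 0.318) were not called. The share of MT-TC was 0.0042%, 0.0044% and 0.0042% in siSF3B6, against 0.015%, 0.012% and 0.0048% in siNC, so siNC replicate 3 lay close to siSF3B6. For MT-TD the 95% Wilson intervals were 0.0012% to 0.0020% in siSF3B6 replicate 3 and 0.0019% to 0.0030% in siNC replicate 3, and these overlapped. MT-TF, the first gene after the promoters, had 0.0032%, 0.0029% and 0.0028% in siSF3B6, against 0.0043%, 0.0043% and 0.0049% in siNC, and was highest in siNC replicate 3.

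**Figure D4:**
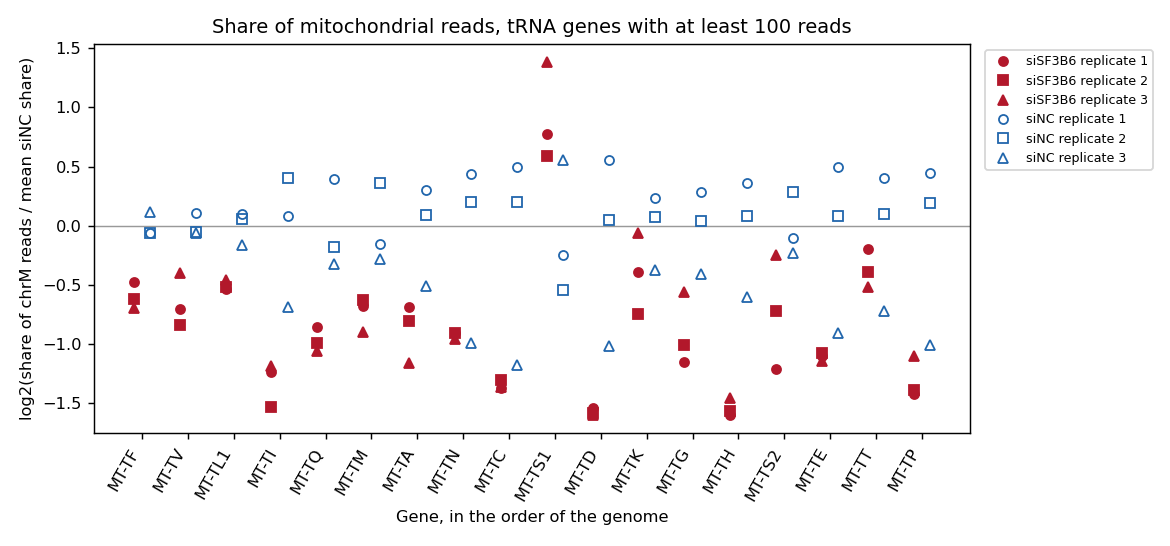
Share of mitochondrial reads of the 18 tRNA genes with at least 100 reads in all, as log2 of the share over the mean siNC share, in genome order, with filled symbols for the siSF3B6 libraries and open symbols for the siNC libraries. MT-TS1 is the only tRNA gene whose siSF3B6 values all lie above 0, and MT-TD and MT-TH lie lowest, with siNC replicate 3 (open triangles) between the groups for most genes.

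Position and strand did not sort the genes cleanly. The minus-strand genes together held 0.491%, 0.507% and 0.703% of mitochondrial reads in siSF3B6, against 0.712%, 0.587% and 0.572% in siNC, with overlap (exact permutation p = 0.5). The plus-strand tRNA genes held 0.023%, 0.023% and 0.025% in siSF3B6, against 0.045%, 0.041% and 0.032% in siNC, without overlap. The minus-strand tRNA genes, MT-TS1 included, held 0.037%, 0.035% and 0.045% in siSF3B6, against 0.069%, 0.054% and 0.041% in siNC, with overlap. Across the 15 coding and rRNA genes, the relative change had a Spearman correlation of 0.35 with position, -0.34 with length and -0.24 with GC content. These points share their libraries and the last 2 correlations had the other sign against siNC replicate 3 alone (0.40 and 0.24), so they are given as a description only.

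Nuclear copies of mitochondrial sequence can take or give reads where a read fits both. A block on chromosome 1 (GRCh38, 629062 to 634922) holds 7 annotated copies that match their mitochondrial gene at 97.6% to 98.7% of aligned bases. MTATP6P1 had 15.1, 14.9 and 16.8 reads per 100 MT-ATP6 reads in siSF3B6, against 17.8, 17.1 and 14.2 in siNC. MTND2P28 had 3.03, 3.02 and 3.31 reads per 100 MT-ND2 reads in siSF3B6, against 3.43, 2.96 and 2.99 in siNC. MTCO1P12 had 1.15, 1.11 and 1.37 reads per 100 MT-CO1 reads in siSF3B6, against 1.14, 1.08 and 1.18 in siNC. These ratios overlapped between the groups, and the copies named so far followed their mitochondrial genes. The other copies had at most 74 reads in a library, too few to show this. Of the 6 copies tested, 5 were higher in siSF3B6, where 20.8% of all genes were. Among them were MTND2P28 (log2 fold change 1.27, adjusted p = 0.0226), MTATP6P1 (1.22, adjusted p = 0.0139) and MTCO1P12 (0.95, adjusted p = 0.00277). The median log2 fold change of the 6 was 1.13, and 0.32 against siNC replicate 3 alone. All 7 copies together had 1.47, 1.47 and 1.66 reads per 100 mitochondrial reads in siSF3B6, against 1.25, 1.33 and 1.57 in siNC. No source used here says how reads that fit both places were assigned. How many reads the mitochondrial genes with such a copy gained or lost is therefore not known, and the reads of the copies do not bound it. MTRNR2L12, the only one of 8 nuclear MTRNR2-like genes abundant enough to test, had 44, 44 and 47 reads in siSF3B6, against 11, 20 and 31 in siNC.

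Nuclear genes that transcribe, replicate, process and degrade mitochondrial RNA were called in both directions. The counts of the following lists stand beside a background of 20.8% of all genes tested called higher, 20% called lower and 40.8% called in either direction. Of 21 tested genes of mitochondrial transcription and replication, 0 were higher and 8 lower, with a median log2 fold change of -0.09 beside 0.00093 over all genes. Of the 21, 1 was higher at an unadjusted p under 0.05, and DESeq2 and limma-voom called 0 higher. With a block for replicate number, edgeR called 2 of them higher and 8 lower. The share of all genes called in that fit is not given here. All 32 nuclear genes named from these lists here kept their direction against siNC replicate 3 alone. They were chosen for large changes in a fit that held the same libraries, so this is not an independent check. PRIMPOL, a primase and polymerase that restarts stalled forks, had 5.40 ± 1.37 CPM in siSF3B6 and 9.90 ± 0.75 CPM in siNC (SD, n = 3 each), a log2 change of -0.87 (SE 0.16, adjusted p = 0.000652). TOP1MT, the mitochondrial topoisomerase I, had 11.8 ± 0.43 CPM in siSF3B6 and 19.8 ± 2.36 CPM in siNC, a log2 change of -0.75 (SE 0.11, adjusted p = 0.000131). TOP3A, a topoisomerase that also separates daughter mitochondrial genomes, had -0.61 (adjusted p = 9.48e-05). TFAM, which packages mitochondrial DNA and starts its transcription, fell to 54.1 ± 6.17 CPM in siSF3B6, against 72.4 ± 4.66 CPM in siNC, a log2 change of -0.42 (SE 0.094, adjusted p = 0.00307). The 21 genes had a median log2 fold change of -0.19 against siNC replicate 3 alone, beside 0.0058 over all genes tested.

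Of 34 tested genes that cut and modify mitochondrial RNA, 5 were higher and 7 lower (median -0.02), close to or below that background. TRMT10C, a subunit of mitochondrial RNase P, rose to 77.4 ± 9.54 CPM in siSF3B6, against 47.6 ± 7.27 CPM in siNC, a log2 change of 0.70 (SE 0.11, adjusted p = 0.000351). FASTKD5, needed to cut junctions that no tRNA marks, had 0.38 (adjusted p = 0.00296), and TRNT1, which adds CCA to tRNA ends, had 0.33 (adjusted p = 0.0295). PUS1, a tRNA pseudouridine synthase, fell to 23.9 ± 2.97 CPM in siSF3B6, against 40.4 ± 4.50 CPM in siNC, a log2 change of -0.75 (SE 0.11, adjusted p = 0.000162). GTPBP3, a tRNA wobble-base modifier, had -0.57 (adjusted p = 0.000311), and MRM1, a 16S rRNA methyltransferase, had -0.54 (adjusted p = 0.00166). TRMT10C (0.45, adjusted p = 0.0608) and TRNT1 (0.34, adjusted p = 0.219) were not called against siNC replicate 3 alone.

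Of 14 genes of mitochondrial RNA stability and decay, 3 were higher, close to the background of 20.8%, and 7 lower, where 20% of all genes were (median -0.26). MTPAP, the mitochondrial poly(A) polymerase, rose to 40.7 ± 3.66 CPM in siSF3B6, against 30.5 ± 1.77 CPM in siNC, a log2 change of 0.42 (SE 0.092, adjusted p = 0.00276). REXO2, an oligoribonuclease, had 0.41 (adjusted p = 0.00218), and SUPV3L1, the helicase of the RNA degradosome, had 0.39 (adjusted p = 0.00521). ENDOG, a mitochondrial endonuclease, had -0.85 (adjusted p = 0.000187), and ERAL1, a chaperone of the 12S rRNA, had -0.57 (adjusted p = 0.000854). YBEY, an endoribonuclease of mitochondrial ribosome assembly, had -0.43 (adjusted p = 0.0259). MTPAP (0.32, adjusted p = 0.163), REXO2 (0.31, adjusted p = 0.134), SUPV3L1 (0.26, adjusted p = 0.246) and ERAL1 (-0.45, adjusted p = 0.0709) were not called with the single control. The 14 had a median log2 fold change of -0.15 against siNC replicate 3 alone, beside 0.0058 over all genes tested.

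Of 19 markers of mitochondrial mass, 3 were higher and 7 lower (median -0.11), where 20.8% and 20% of all genes were, and their summed reads were 107782 to 137564 in siSF3B6 and 118370 to 132351 in siNC. The outer-membrane channel VDAC1 had a log2 fold change of 0.37 (adjusted p = 0.00323), the import receptor TOMM20 had 0.30 (adjusted p = 0.00704) and citrate synthase CS had 0.22 (adjusted p = 0.0395). The chaperonin HSPD1 had -0.68 (adjusted p = 2.80e-05), the import pore TOMM40 had -0.59 (adjusted p = 0.00036) and the matrix protease LONP1 had -0.57 (adjusted p = 0.000402). Of 11 regulators of mitochondrial biogenesis, 2 were higher, MYC (0.61, adjusted p = 5.83e-05) and CREB1 (0.29, adjusted p = 0.0179), and 3 lower, the nuclear receptor ESRRA (-0.69, adjusted p = 0.000108), TFAM and YY1 (-0.21, adjusted p = 0.0347). Of 14 mitophagy genes, 5 were higher and 4 lower (median 0.12), led by TAX1BP1 (0.78, adjusted p = 2.97e-05), BNIP3L (0.67, adjusted p = 5.15e-05) and BNIP3 (0.47, adjusted p = 0.000442) upward. ATG7 (-0.56, adjusted p = 0.00023), ATG5 (-0.43, adjusted p = 0.002) and SQSTM1 (-0.35, adjusted p = 0.0236) led downward. Against siNC replicate 3 alone VDAC1, TOMM20, CS, LONP1, CREB1, YY1 and SQSTM1 were not called, with adjusted p = 0.0525 (LONP1) to 0.646 (CS).

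**Figure D5:**
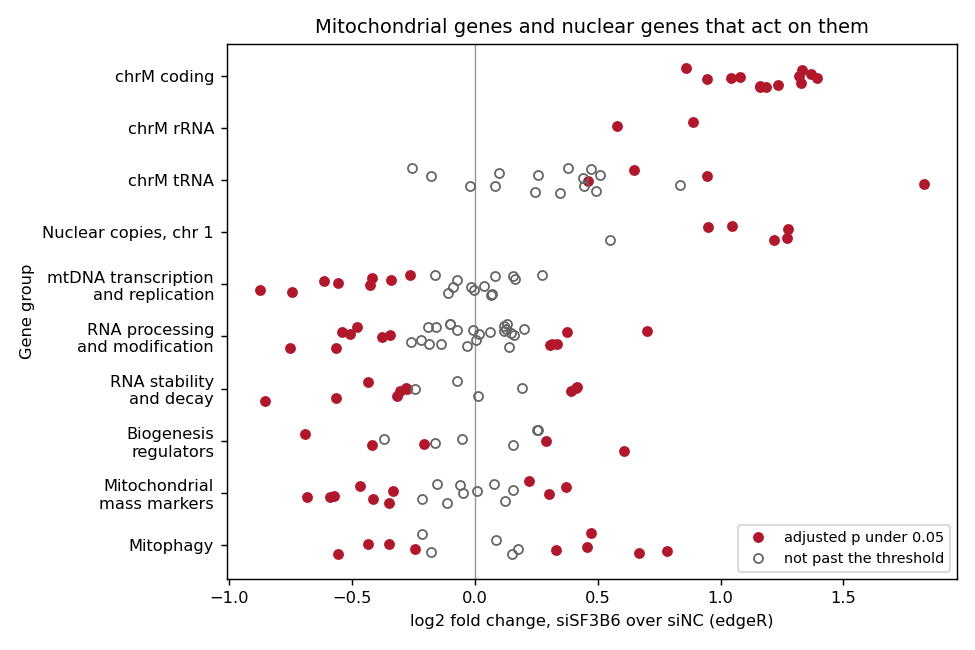
Log2 fold change, siSF3B6 over siNC (edgeR, all 6 libraries), of each tested gene in the mitochondrial classes, the chromosome 1 copies and the lists of nuclear genes, filled where the adjusted p was under 0.05. All filled points of the mitochondrial classes and copies lie above 0, between 0.46 and 1.83, while each nuclear list except transcription and replication has filled points on both sides of 0.

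Nuclear RNAs that lack a poly(A) tail were listed as a measure of how strictly tailed RNA had been selected. The listed RNAs, RMRP, RPPH1 and RN7SL1 among them, made up 0.019%, 0.0092% and 0.012% of nuclear reads in siSF3B6, against 0.019%, 0.014% and 0.014% in siNC. These ranges overlapped, and of the 6 tested, 0 were called by edgeR in either direction, 0 at an unadjusted p under 0.05 and 0 by DESeq2 or limma-voom. With the replicate block, edgeR called 1 of the 6 lower. Long noncoding RNAs made up 1.38% to 1.44% of nuclear reads in siSF3B6 and 1.41% to 1.45% in siNC.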

How the data were processed

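RNA-seq of polyadenylated RNA from 6 libraries, 3 per group, was analysed. The groups and replicate numbers come from the sample titles. The cell line field of the labels changes from sample to sample, and the line named in the titles was used. The count table deposited by the authors holds raw whole-number counts for 39323 rows. FPKM values were deposited by the authors for 39210 genes. The submitters' processing notes name HISAT2, DESeq2 and the build hg38. The counter, its annotation, its treatment of strand and of multiply mapped reads, and the tool behind FPKM appear in no source used here. For the coding and rRNA genes, counts divided by FPKM gave the lengths of GENCODE release 29, which was used for coordinates and sequences, within 0.00119%.

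Counts of all genes were filtered with filterByExpr, scaled by TMM and tested with the quasi-likelihood test of edgeR 4.0.16 in R 4.3.3, without a replicate block, with Benjamini-Hochberg adjustment across the 16869 genes tested (threshold 0.05). The script was tested on simulated data first. Standard errors are the log2 fold change over the square root of F. Shares of mitochondrial reads and ratios between genes were computed from the counts and compared over libraries with exact two-sided permutation tests (scipy 1.17.1, Python 3.11.15), which cannot go below p = 0.1 here. Intervals are 95% Wilson intervals. In the ratio and share comparisons p-values were not adjusted, since none can fall below that limit. Depth ranged from 28504091 to 38546037 gene reads, and from 1001632 to 4086286 mitochondrial reads.

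All chrM rows are named or counted. From the lists of nuclear genes, called members with a mean of at least 5 CPM were named, up to 3 with the largest change in each direction. TFAM stands in 2 lists. The members, the lists and the alternatives were chosen with earlier results of these data known. As alternatives served limma-voom (limma 3.58.1), DESeq2 1.42.0, other scalings and filters, robust dispersion, limma on log2(FPKM + 1) and log2(FPKM + 0.1), a replicate block, each library left out, siNC replicate 3 as the only control, and the libraries numbered 1 and 2 only.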

Additional observations from a re-analysis of the deposited data

How the results depend on the processing

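All genes that were called rose in siSF3B6 under every alternative that kept the nuclear genes in the scaling. The count of 19 called genes became 4 with DESeq2, 4 with robust dispersion, 2 with log2(FPKM + 1) without a filter on low values, and 7 with siNC replicate 3 as the only control. With the mitochondrial total as library size 4 genes were called, all lower. Leaving out each library in turn gave 8 (without siSF3B6 replicate 3) to 24 (without siNC replicate 3), and 12 without siNC replicate 1 and 11 without siNC replicate 2. With that scaling, an alternative extended to the left-out libraries after the data were seen, 0 to 8 genes were called higher and 0 to 19 lower on leaving out each library, both highest without siNC replicate 3 and 0 when a single other library was left out. With the replicate block added it called 0 higher and 2 lower. With library size only, the median of all genes shifted to -0.10 and 17 mitochondrial genes were called. The cause of these differences was not tested. For DESeq2, robust dispersion, the FPKM fits, library size only and the replicate block, the share of all genes called is not given here. Nor is it given for leaving out a library other than siNC replicate 3 with the usual scaling. Those counts can therefore not be read against a background.

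A pairing of the libraries by replicate number was not established. The deviations of the pairs with the same number correlated at 0.040, 0.106 and 0.136, the first below 0.1, although each library correlated best with its own number, a hint from the data only. With the replicate block 20 genes were called, 19 of them among the 19, and the exact sign-flip test of the mitochondrial share over the pairs gave p = 0.25, the smallest that 3 pairs allow.

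The difference of the chrM share of gene reads between the groups ranged from 4.56 to 7.40 points on leaving out each library, that of the tRNA share of chrM reads from -0.043 to -0.022 points and that of the rRNA share of chrM reads from -6.94 to -2.50 points. From summed FPKM these differences were 15.7, -0.49 and -3.70 points. The rRNA difference turned to 0.59 points with siNC replicate 3 as the only control.

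With that single control, several log2 fold changes had the other sign, none of them called: MT-TA -0.051, MT-TF -0.40, MT-TG -0.15, MT-TL1 -0.020, MT-TM -0.13, MT-TQ -0.33, MT-TS2 -0.11, MT-TV -0.25 and the nuclear copy MTCO3P12 -0.25. So had the relative changes of shares, as log2, of MT-RNR2 (0.13), MT-ND1 (-0.13), MT-ND2 (-0.15), MT-TN (0.071), MT-ATP8 (-0.035), MT-ATP6 (-0.17), MT-ND3 (-0.11), MT-ND4L (0.014), MT-ND4 (-0.021) and MT-TT (0.35). MT-ND1 ranged from -0.026 to 0.13 in relative share on leaving out each library. With library size only, MT-TC was -0.023 and MT-TP -0.0048. With the libraries numbered 1 and 2 only, MT-TI was 0.047 and MT-TP -0.027. On leaving out each library, MT-TI ranged from -0.20 to 0.16 and MT-TP from -0.060 to 0.17.

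Depth limits the tRNA genes most: MT-TY, MT-TW and MT-TL2 had 3 to 17 reads per library, so their place in any count rests on few reads, and in siNC replicate 1 a single read is 9.98e-05% of mitochondrial reads. Groups of 3 libraries, of which siNC replicates 1 and 2 stand apart from the rest, limit every other gene.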
